A study of Mus musculus with 9 samples.

Results

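The interleukin 1 family is a group of secreted and nuclear cytokines that start and tune inflammation. The 6 genes described here were taken by gene symbol: Il1a and Il1b, the agonists of the type 1 interleukin 1 receptor; Il1rn, the antagonist that occupies the same receptor; Il18; Il33; and Il1rl1, the receptor chain that binds the Il33 protein. Of these 6, 5 had a probe set with that symbol alone, out of 22180 genes that could be named on the array, and each of the 5 had exactly 1 such probe set. Il1rl1 is not analysed here.

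Messenger RNA of mouse embryonic fibroblasts was measured on 9 Affymetrix MoGene 2.0 arrays, 1 for each combination of 3 genotypes and 3 treatments. The genotypes were wild type (WT, genotype label STING+/+), a STING knockout (SKO, STING-/-) and a MyD88 knockout (MyD88KO, MyD88-/-, which part of the labels spells MyD99KO). Within each genotype 1 culture was the control (mock in the titles, untreated in the protocol), 1 was transfected with double-stranded DNA (called ISD in the titles) and 1 was given lipopolysaccharide (LPS), both for 6 h. Doses, the age of the embryos, the number of animals behind a culture and the passage are not stated in the sources used here. Each group is 1 array, so no value below has a replicate standard deviation, and the 2 responses of a genotype share its mock array.

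Interleukin 1 alpha and interleukin 1 beta bind the same receptor, which signals through the adaptor MyD88 to NF-kB and MAP kinases, and their genes are classically switched on by microbial products. The Il1b and Il18 proteins are made as inactive precursors that inflammasome caspases cut, whereas the Il33 protein is held in the nucleus of barrier and stromal cells, fibroblasts among them, and acts as an alarm signal when cells are damaged. LPS is sensed by Toll-like receptor 4, which uses MyD88 and a second adaptor, TRIF. Cytosolic DNA is sensed by cGAS, which activates STING and, through it, the kinase TBK1 and the transcription factor IRF3.

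The genes sit at separate places in the mouse genome. Il1a, Il1b and Il1rn are on chromosome 2, Il18 is on chromosome 9, Il33 on chromosome 19 and Il1rl1 on chromosome 1. The results turn on Il1a, Il1b and Il33, so the 250 bases before their annotated starts are given here, 5′ to 3′ on the strand of the gene, from RefSeq in assembly GRCm38.p6. Il33 has 2 annotated starts and so 2 windows, at chr19:29924863-29925112 and chr19:29945540-29945789, both on the plus strand. The Il1a window is chr2:129309973-129310222 and the Il1b window chr2:129371140-129371389, both on the minus strand. Capitals mark matches to the motifs named after the sequences.
Il1a: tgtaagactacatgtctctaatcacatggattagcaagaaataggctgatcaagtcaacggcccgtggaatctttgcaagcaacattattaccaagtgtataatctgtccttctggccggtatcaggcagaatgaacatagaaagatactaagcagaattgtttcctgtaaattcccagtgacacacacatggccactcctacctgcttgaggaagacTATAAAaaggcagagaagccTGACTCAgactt
Il1b: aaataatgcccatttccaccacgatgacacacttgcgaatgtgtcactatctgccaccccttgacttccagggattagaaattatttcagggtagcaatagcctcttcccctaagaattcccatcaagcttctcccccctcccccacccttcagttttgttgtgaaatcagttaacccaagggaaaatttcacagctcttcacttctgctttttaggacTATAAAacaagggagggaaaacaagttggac
Il33 window 1: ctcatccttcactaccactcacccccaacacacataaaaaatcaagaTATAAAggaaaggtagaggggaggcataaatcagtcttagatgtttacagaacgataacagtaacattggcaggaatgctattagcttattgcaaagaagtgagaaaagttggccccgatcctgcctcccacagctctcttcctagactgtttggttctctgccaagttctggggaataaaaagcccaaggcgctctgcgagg
Il33 window 2: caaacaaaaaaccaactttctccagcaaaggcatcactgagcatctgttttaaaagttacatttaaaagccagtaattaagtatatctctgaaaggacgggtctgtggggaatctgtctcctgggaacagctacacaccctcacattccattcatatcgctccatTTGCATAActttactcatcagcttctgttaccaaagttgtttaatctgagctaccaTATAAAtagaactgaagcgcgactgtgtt

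The letters TATAAA, searched on the gene's own strand, lay 32 to 27 bases before the start of Il1a, 31 to 26 before Il1b and 29 to 24 before the downstream Il33 start, while in the upstream Il33 window they lay 203 to 198 bases before it. Of 32851 RefSeq windows of the same length, 7.59% held them. The other motifs were searched on both strands. TGANTCA, the AP-1 site, was found in the Il1a window 12 to 6 bases before the start and is present in 6.75% of windows. An Il1rn window held it too, 141 to 135 bases before the start. TTGCNNAA, a C/EBP site, was found in the downstream Il33 window 85 to 78 bases before the start and is present in 9.56%. An Il1rl1 window held it too, 34 to 27 bases before the start. The kB consensus (7.25% of windows), the interferon-stimulated response element core (2.98%) and TTCNNNGAA of the gamma-activated site (7.02%) had no match in the 10 windows of the 6 genes. These matches describe letters in a window, and no binding was measured. The Il1a and Il1b windows are 60.9 kb apart, and between both genes RefSeq lists Gm25703, a small nuclear RNA, and Gm18333, a pseudogene.

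The targeted gene was checked first. Sting1 had log2 signals of 4.54, 4.60 and 3.78 on the SKO arrays and 8.54 to 9.32 on the other 6, so it was low on every array labelled SKO. Myd88 read 6.99, 8.21 and 7.17 in MyD88KO against 7.52, 8.95 and 7.73 in WT. Where its probes lie relative to the deleted part is not stated in the sources used here, so Myd88 does not check that label. Tlr4, the LPS receptor, read 5.04 to 5.75 throughout. The median of all values was 4.44, and array medians lay between 4.42 and 4.46. Of 11 fibroblast markers, 10 to 11 reached that median on every array, and of 15 leukocyte and macrophage markers 13 to 15 did. In such bulk samples fewer cells of a type and less RNA per cell cannot be told apart.

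LPS gave the highest signals of both interleukin 1 agonist genes in WT and SKO, and much lower ones in MyD88KO. In WT, Il1b had a log2 signal of 3.78 in mock and 9.84 with LPS, a difference of 6.06, or 66.7-fold. Il1a went from 3.18 to 9.13, a difference of 5.95, or 61.9-fold. Both mock signals were below 4.44, under which signals are treated here as dim, so these folds are not exact. That line is the median of all values and not a measured background level. Counted from 4.44 instead, the LPS signals were 42.0-fold higher for Il1b and 25.8-fold for Il1a. Ordered by the difference between the WT LPS and mock arrays among 13887 genes with the brighter array at or above 4.44, Il1b was number 1 and Il1a number 2, an order that uses these dim mock signals.

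In SKO both genes began higher and ended lower. Il1b read 5.22 in mock and 8.36 with LPS, a difference of 3.14 (8.82-fold). Il1a read 5.31 and 7.69, a difference of 2.38 (5.22-fold). They stood at places 12 and 22 of 13985 genes in the SKO order. In MyD88KO, Il1b read 3.68 and 4.57, a difference of 0.88 (1.84-fold), at place 108 of 13955 genes. Il1a read 3.54 and 4.26, a difference of 0.72, and both signals were below 4.44, so this difference has the same limit, as has the dim Il1b mock signal. The MyD88KO LPS array therefore stood below both other LPS arrays for each gene, by 3.43 (Il1a) and 3.79 (Il1b) against SKO and by more against WT.

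**Figure D1:**
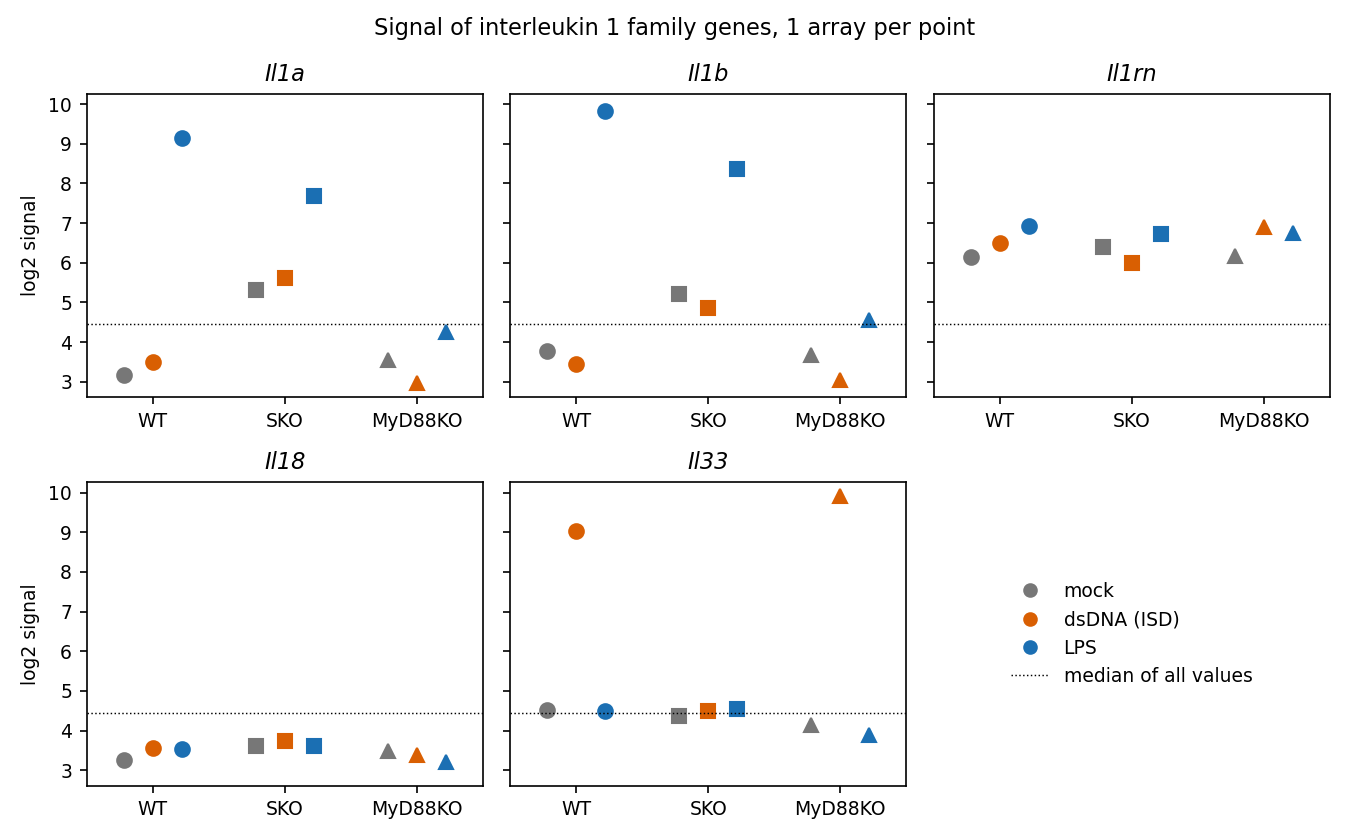
Log2 signal of the 5 measured genes on each of the 9 arrays, 1 point per array, grouped by genotype and treatment; the dotted line is the median of all values, 4.44. Il1a and Il1b are highest on the WT and SKO LPS arrays, Il33 on the WT and MyD88KO dsDNA arrays, Il1rn stays between 5.99 and 6.94, and Il18 stays below the line.

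At least 2-fold from mock with LPS were 2 of the 5 genes in WT, where 0.864% of genes were that much higher, 2 in SKO (0.536% of genes) and 0 in MyD88KO (0.595% of genes). Across all genes, 53 were at least 2-fold higher with LPS in both WT and SKO, and of these only Il1b reached the Il1b difference in both genotypes.

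All 14737 genes at or above 4.44 on at least 1 array entered a limma fit with 1 LPS effect for WT and SKO. It called Il1b higher by 4.66 ± 0.57 (log2 difference ± SE, limma adjusted p = 0.0343), a call that depended on the arrays and settings given below. Its spread comes from differences between the WT and SKO responses to LPS and between the WT and MyD88KO responses to dsDNA. The fit moderates that spread with the variances of all tested genes, and no repeated cultures enter it. Il1b was the only call among the 4 genes of the family that entered the fit, beside 0.326% of all genes called higher. Il1a had a difference of 4.17 ± 0.68 that missed the threshold (limma adjusted p = 0.126). Its WT and SKO differences lay 3.57 apart. It also missed the threshold without the SKO mock array (5.73, limma adjusted p = 0.05892) or the SKO LPS array (5.73, 0.06084). For Il1b they lay 2.92 apart. Each gap compares 1 array pair with another and was not tested. The Il1b call was lost without the WT mock array (limma adjusted p = 0.0717), the WT ISD array (0.3965), the WT LPS array (0.1084), the MyD88KO mock array (0.4027) or the MyD88KO ISD array (0.4041). It also missed the threshold without an intensity trend (0.1573), with robust eBayes (0.7141) and with no filter on dim genes (0.07655).

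In MyD88KO the fitted LPS effect was 0.77 ± 0.77 for Il1b (limma adjusted p = 0.874) and 0.72 ± 0.93 for Il1a (0.916), with no call in the family and 0.0746% of all genes called. The LPS effect of WT and SKO exceeded that of MyD88KO by 3.88 ± 0.91 for Il1b and by 3.45 ± 1.09 for Il1a (limma adjusted p = 0.869 for both). That contrast called 0% of genes, with 765 genes at an unadjusted p under 0.05, 2 of them from the family, so it did not separate MyD88KO from the other genotypes at this number of arrays.

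Transfected DNA gave the opposite picture. Il33 was the gene of the family that rose with it, in WT and MyD88KO. In WT the Il33 signal was 4.53 in mock, just above 4.44, and 9.02 with ISD, a difference of 4.49 (22.5-fold, also not exact). In MyD88KO it was 4.14 and 9.92, a difference of 5.78 (55.0-fold, or 44.4-fold counted from 4.44, since the mock signal is dim), and in SKO 4.38 and 4.50, a difference of 0.13. The sizes in WT and MyD88KO were not compared by a test. Only the WT and MyD88KO ISD arrays were high. The other 7 arrays lay between 3.89 and 4.54, with 4.48 on the log2 scale separating the lower of the high arrays from the highest of the rest.

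**Figure D2:**
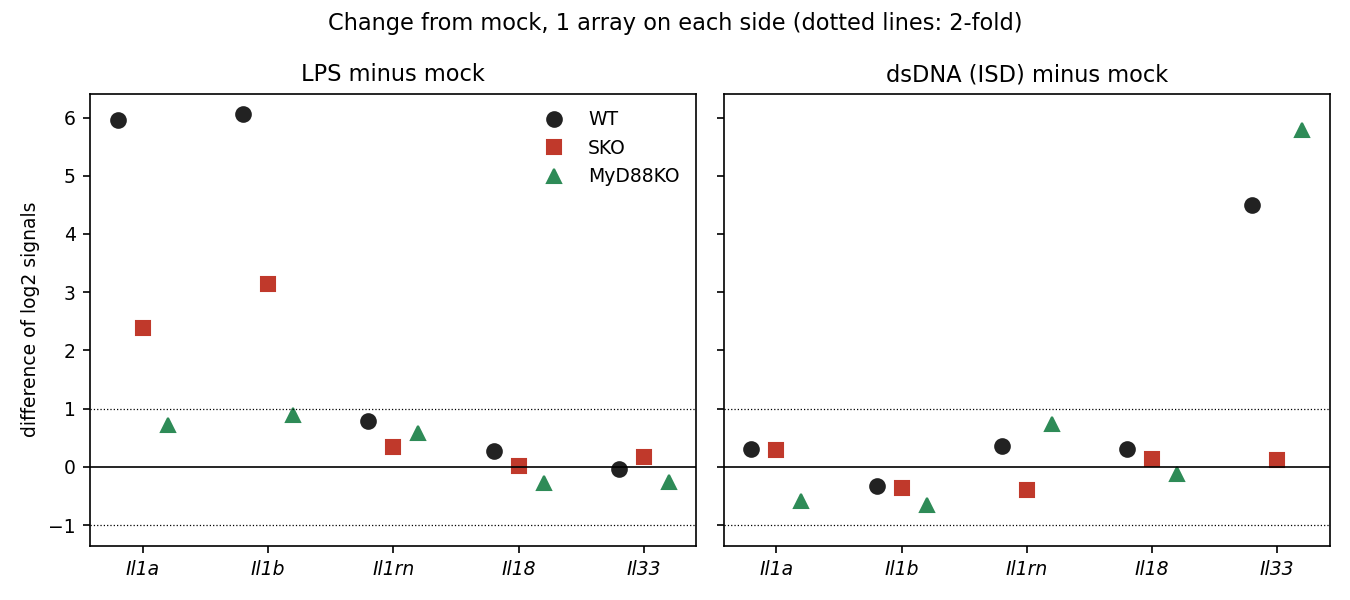
Log2 difference between the stimulated and the mock array for each measured gene, in WT, SKO and MyD88KO, with LPS and dsDNA in separate panels; the dotted lines mark 2-fold. Il1a and Il1b pass 2-fold with LPS in WT and SKO, and Il33 passes it with dsDNA in WT and MyD88KO.

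At least 2-fold higher with ISD was 1 of the 5 genes in WT (1.94% of genes), 0 in SKO (0.143%) and 1 in MyD88KO (3.31%). Il33 stood at place 24 of 13924 genes in WT and 19 of 14027 in MyD88KO. Of 240 genes at least 2-fold higher with dsDNA in both genotypes, 19, Il33 included, reached the Il33 difference in both. The others included the chemokine genes Ccl5 and Cxcl10 and the interferon-inducible genes Ifit1 and Rsad2, named here after their values were seen.

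In the limma fit, the dsDNA effect shared by WT and MyD88KO was 5.12 ± 0.26 for Il33 (limma adjusted p = 0.000126), the only call of the 4 genes tested, beside 5.27% of genes called higher and 2.29% called lower. In SKO the fitted Il33 effect was 0.16 ± 0.36, and no gene of the array was called there (0% of genes, 508 at an unadjusted p under 0.05, none of them from the family). The difference between both effects was itself tested: the response of WT and MyD88KO exceeded that of SKO by 4.96 ± 0.42 (limma adjusted p = 0.00386), with 1.25% of genes called higher. This call was lost without the WT LPS array (limma adjusted p = 0.1665), the SKO mock array (0.2657) or the SKO LPS array (0.1673), while the difference itself stayed between 4.47 and 5.70. The SKO ISD array has an effect of its own in the fit. No spread of the SKO dsDNA response therefore enters the SEs and p-values of the SKO effect or of the difference. Markers of other cell types were counted with the shared dsDNA effect. Of the endothelial markers 1 of 4 tested was called higher (Cdh5, by 0.61 ± 0.14), of the epithelial ones 1 of 5 was called lower (Krt18, which fell by 0.51 ± 0.10), and of 11 fibroblast markers 0 were called. Of the 15 leukocyte and macrophage markers 1 was called higher (Fcgr1, by 1.01 ± 0.17). Of the mast cell markers 1 of 2 tested was called higher (Hdc, by 0.92 ± 0.17). Hdc had signals of 4.04 and 4.50 on the WT and MyD88KO ISD arrays. It reached the median of all values on the MyD88KO ISD array alone and entered the fit only through that array. The Hdc call is therefore not independent of the filter, and nothing is read from it. The part of all these markers in the Il33 result was not tested.

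Il1a and Il1b had no called change with dsDNA. The Il1a array differences were 0.30 in WT, 0.30 in SKO and -0.58 in MyD88KO. Those of Il1b were -0.33, -0.35 and -0.65. For both genes the WT and MyD88KO mock and ISD signals were all below 4.44, so no direction is read from them. The fitted shared effects were -0.58 ± 0.68 for Il1a (limma adjusted p = 0.695) and -0.87 ± 0.57 for Il1b (0.451). For SKO the fit gave 1.19 ± 0.93 for Il1a where the arrays differ by 0.30, because the SKO mock level in the fit also depends on the LPS effect shared with WT.

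Set against each other, Il33 and the interleukin 1 agonists changed in different arrays. With LPS the Il33 change was lower than the Il1b change by 6.10 on the log2 scale in WT, by 2.98 in SKO and by 1.14 in MyD88KO. With ISD the Il33 change was above that of Il1b by 4.82 in WT, 0.48 in SKO and 6.43 in MyD88KO. The WT and MyD88KO mock and ISD signals of Il1a and Il1b were below 4.44, so sizes built on them are not exact. The same differences for Il33 and Il1a were 4.19 and 6.36 with ISD in WT and MyD88KO, and -0.17 in SKO. Between the LPS and ISD arrays of a genotype, Il1b was higher with LPS by 6.39 in WT, 3.49 in SKO and 1.53 in MyD88KO. In MyD88KO the Il1b ISD signal was 3.03, and the LPS signal of 4.57 lay only 0.12 above 4.44. By contrast Il33 was lower with LPS by 4.53 in WT and by 6.03 in MyD88KO, with a dim LPS signal of 3.89, and differed by 0.04 in SKO. Over the 9 arrays Il33 had a Pearson r of -0.43 with Il1a and -0.44 with Il1b, against 0.98 between Il1a and Il1b. These are descriptions over 9 arrays that share mock cultures, and the Il33 values rest on 2 high arrays.

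**Figure D3:**
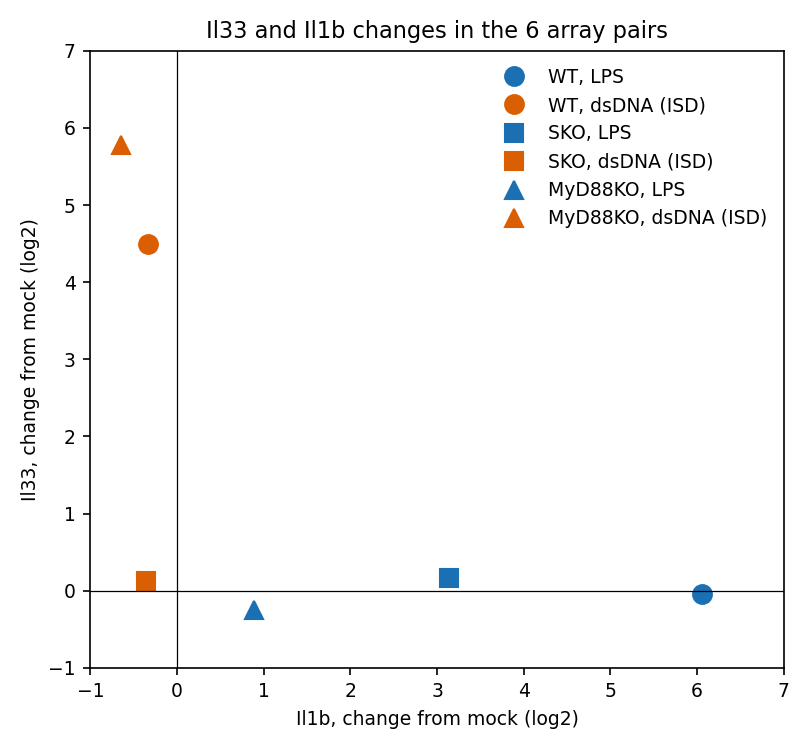
Change of Il33 from mock against change of Il1b from mock, both as log2 differences, 1 point for each of the 6 pairs of a stimulated and a mock array. The WT and MyD88KO dsDNA pairs are high for Il33, with changes of 4.49 and 5.78, the WT and SKO LPS pairs are high for Il1b, with 6.06 and 3.14, and no pair is high for both.

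**Figure D4:**
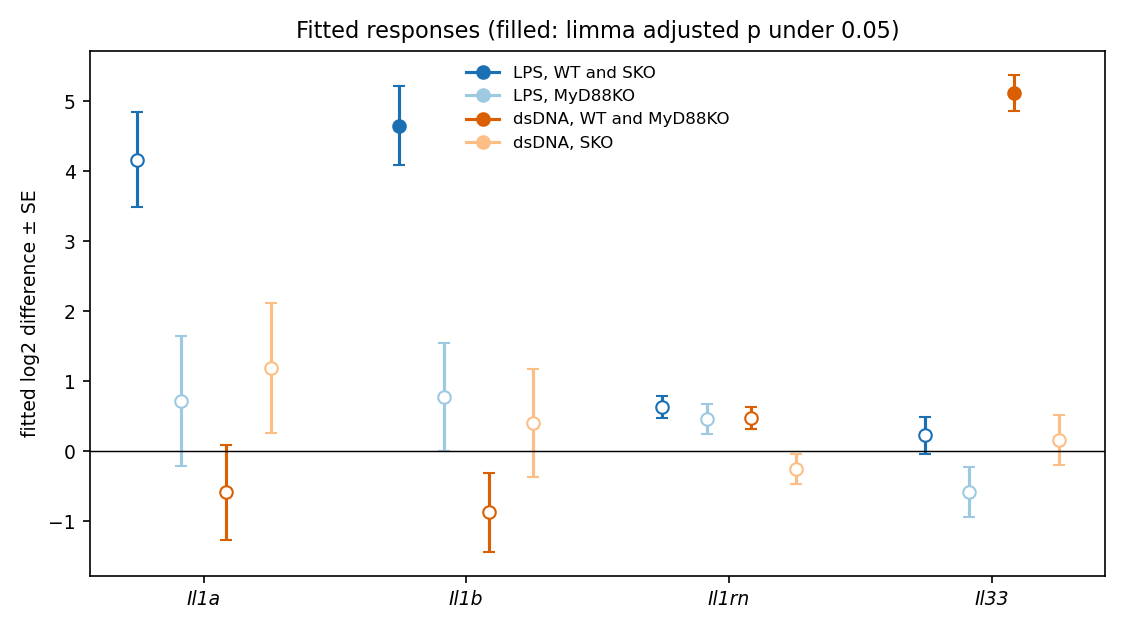
Fitted log2 difference with its standard error for Il1a, Il1b, Il1rn and Il33 in 4 responses of the limma model; filled points have an adjusted p under 0.05. The filled points are Il1b with LPS in WT and SKO, at 4.66, and Il33 with dsDNA in WT and MyD88KO, at 5.12.

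Il1rn, the receptor antagonist, had signals within a range of 0.95 on the log2 scale over all arrays. Its LPS signal was above mock in each genotype, and its ISD signal was above mock in WT and MyD88KO and below it in SKO. Il1rn read 6.14, 6.51 and 6.94 in WT (mock, ISD and LPS), 6.39, 5.99 and 6.73 in SKO and 6.16, 6.90 and 6.75 in MyD88KO. Its differences from mock lay between -0.40 (SKO with ISD) and 0.79 (WT with LPS), so none reached 2-fold. In the fit it had 0.63 ± 0.15 with LPS in WT and SKO (limma adjusted p = 0.462) and 0.48 ± 0.15 with dsDNA in WT and MyD88KO (0.135). The highest Il1rn array was the WT LPS array and the lowest the SKO ISD array.

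Il18, which encodes the interferon-gamma-inducing member of the family, was below 4.44 on every array, between 3.22 and 3.73, and so was not tested. Its differences from mock ranged from -0.28 (MyD88KO with LPS) to 0.31 (WT with ISD). With no measured background level, a transcript at this signal cannot be told from background. Long noncoding RNAs that overlap Il1b (Il1bos) and Il1a (Gm14023) have probe sets of their own, and these read 3.30 to 3.87 and 2.58 to 2.90, without the LPS pattern of the genes they overlap.

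The order of levels was similar for both agonist genes. For Il1a it ran from WT LPS (9.13) through SKO LPS (7.69), SKO ISD (5.61), SKO mock (5.31) and MyD88KO LPS (4.26) to the remaining 4 arrays, which lay between 2.96 and 3.54. With 1 array per group the spread within a group is not known, so neighbours in this order cannot be separated. The SKO mock and ISD arrays exceeded those of WT, by 2.13 and 2.12 for Il1a and by 1.44 and 1.42 for Il1b, while the SKO LPS array was below that of WT, by 1.44 and 1.48 (differences -1.44 and -1.48).

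Averaged over treatments, a limma fit of genotype and treatment gave SKO above WT by 0.94 ± 0.89 for Il1a (limma adjusted p = 0.698) and called 0 of the 4 genes, beside 2.32% of all genes in either direction. Without the WT LPS array the Il1a difference was 2.33 and passed the threshold (limma adjusted p = 0.04859). That fit called 98 of 14737 genes higher and 58 lower. MyD88KO minus WT was -1.68 for Il1a (0.254) and -1.93 for Il1b (0.19), with 0 called (19.5% of genes). In that contrast 9 of 11 fibroblast markers were called higher in MyD88KO and 1 lower (Fn1). Of the epithelial markers 3 of 5 tested were called lower (Cldn4, Krt18 and Krt19), of the endothelial ones 2 of 4 (Emcn and Kdr), and of 15 leukocyte and macrophage markers 1 was called higher (Lyz2). The part of these markers in the values was not tested. SKO was above MyD88KO by 2.62 ± 0.89 for Il1a (limma adjusted p = 0.0702) and by 2.39 ± 0.89 for Il1b (0.0921), with 0 called (26.6% of genes). Without the WT LPS array 2 genes of the family, Il1a and Il1b, were called higher, beside 1810 of 14737 genes called higher and 1545 lower. In the SKO minus MyD88KO contrast on all arrays 7 of 15 leukocyte and macrophage markers were called higher in SKO and 1 lower (Csf1r). Of 11 fibroblast markers 8 were called lower in SKO and 1 higher (Fn1). Also called higher in SKO were 2 of 5 epithelial markers tested (Cldn4 and Krt18) and 2 of 4 endothelial ones (Emcn and Kdr). Of 2 lymphocyte markers tested, Gata3 was higher and Thy1, also a fibroblast marker, lower. The part of all these markers was not tested.

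Some macrophage markers were higher in SKO as well. The summed linear signal of the 15 leukocyte and macrophage markers was 1533 to 1646 on the SKO arrays, 991 to 1226 on the WT arrays and 1163 to 1393 on the MyD88KO arrays. In mock 14 of the 15 were higher in SKO than in WT, with a median difference of 0.64 over the list, and the medians were 0.47 with ISD and 0.19 with LPS. Averaged over treatments 5 of 15 were called higher in SKO than in WT (1.19% of all genes): Adgre1, Aif1, Fcer1g, Itgam and Lyz2. Adgre1, which encodes a macrophage surface antigen, read 5.18, 4.84 and 5.54 in WT, 7.15, 6.76 and 6.71 in SKO and 5.46, 4.91 and 5.24 in MyD88KO (SKO above WT by 1.68 ± 0.15, limma adjusted p = 0.00381). No marker of the list was at 0. With LPS in WT and SKO 0 of the 15 were called, with a median fitted difference of -0.03, although Cd14 and Cybb were at least 2-fold higher with LPS in WT. Macrophages are a well-known source of Il1a and Il1b after LPS, and the part of these markers in the Il1a and Il1b values was not tested.

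The other genes of the pathway were counted in the same fits, where 5.27% of all genes were called higher and 2.29% lower with dsDNA in WT and MyD88KO. Of the 10 receptors and binding proteins measured, 5 were tested, and Il1r1, the signalling receptor for both agonists, was the one called with dsDNA in WT and MyD88KO. It fell by 0.73 ± 0.12 (limma adjusted p = 0.016). Its mock and ISD signals were 7.07 and 6.55 in WT, 7.88 and 7.03 in MyD88KO, and 7.36 and 7.38 in SKO. The other interleukin 1 family ligands (5 measured, 1 tested) had no 2-fold difference and no call.

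Of the 16 signalling genes measured, all tested, 2 rose with dsDNA in WT and MyD88KO and 0 fell, beside the same 5.27% and 2.29% of all genes. The signal of Myd88, the adaptor of the receptors, rose by 1.34 ± 0.09 (limma adjusted p = 0.000338), with a response 0.87 ± 0.14 above that of SKO (0.0445). It read 7.52 in mock and 8.95 with ISD in WT, and 6.99 and 8.21 in MyD88KO. Where its probes lie relative to the deleted part is not stated, so the MyD88KO rise may not be that of an intact transcript. Peli1, an E3 ubiquitin ligase of the pathway, rose by 1.29 ± 0.17 (0.00733). Irak4 and Chuk are not analysed here. Averaged over treatments Irak2, a kinase of the receptor complex, was lower in MyD88KO than in WT by 0.73 (difference -0.73 ± 0.15, limma adjusted p = 0.0127). In that contrast, with 19.5% of all genes called, the receptor gene Il1rl2 (0.65 ± 0.12) and Gsdmd (0.95 ± 0.26) were called higher, and Il18rap (-0.84 ± 0.22) and Txnip (-0.69 ± 0.07) lower. Between SKO and MyD88KO, with 26.6% of all genes called, these 5 genes were called too, and Ikbkg was higher in SKO by 0.26 ± 0.07.

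Of the 16 genes of processing and release, 10 were tested, and Casp4, an inflammatory caspase that binds intracellular LPS, rose with dsDNA by 2.83 ± 0.39 (limma adjusted p = 0.0081). It read 3.84 in mock and 6.35 with ISD in WT, and 3.87 and 7.44 in MyD88KO. Both mock signals were below 4.44. With LPS it read 5.79 in WT, 1.95 above mock, and 4.59 in MyD88KO, and the LPS effect shared by WT and SKO had no call (1.46 ± 0.39, limma adjusted p = 0.554). In SKO it was already 6.06 in mock, 6.24 with ISD and 6.66 with LPS. Gsdmd, the pore-forming gasdermin, was higher by 1.46 in MyD88KO with ISD, without a call (0.96 ± 0.22 shared, limma adjusted p = 0.0506). Nlrp3, an inflammasome sensor, was higher by 1.04 with LPS in WT and had no call either. Of the genes tested in the 4 pathway lists 0 were called with LPS in WT and SKO, beside 0.326% of all genes called higher, and nothing is read from that count.

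**Figure D5:**
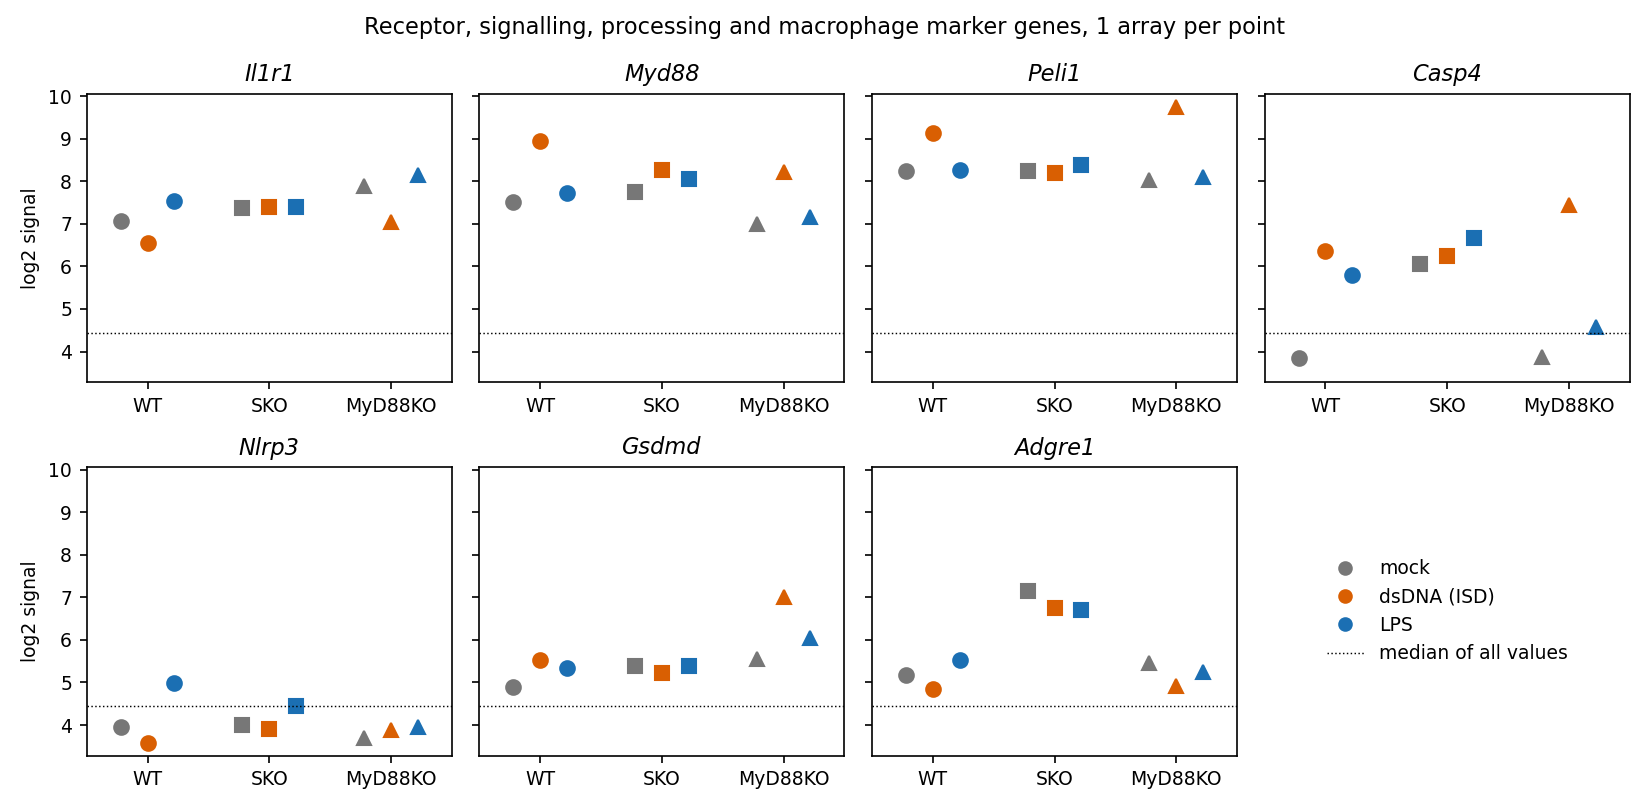
Log2 signals of 7 genes (Il1r1, Myd88, Peli1, Casp4, Nlrp3, Gsdmd and Adgre1) on the 9 arrays, 1 point per array. Casp4 is low in the WT and MyD88KO mock arrays, at 3.84 and 3.87, and higher in all 3 SKO arrays, and Adgre1 is highest in SKO, between 6.71 and 7.15.

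The genes whose signals tracked these cytokines most closely over the 9 arrays were found among 2145 genes with a range of at least 2-fold. For Il33 they were Plat, the tissue plasminogen activator (Pearson r 0.994), Olfml2a (0.993), Lipg, a lipase (0.993), Polr2g, a subunit of RNA polymerase II (0.992) and Syvn1, a ubiquitin ligase of the endoplasmic reticulum (0.992). All 5 were highest on the WT and MyD88KO ISD arrays, as Il33 was: Polr2g, for example, read 10.31 and 10.36 there and 8.15 to 8.60 on the other 7. For Il1b they were Il1a (0.983), Ebi3, a cytokine subunit (0.972), Nlrp3 (0.947), Il12b (0.918) and Nupr1l (0.916). For Il1a they were Il1b, Ebi3 (0.954), Tnip1 (0.935) and the neutrophil chemokine genes Cxcl1 (0.927) and Cxcl3 (0.920). Cxcl1 read 5.27 in mock and 7.60 with LPS in WT, and 6.69 and 7.41 in SKO, so its SKO mock level was also above that of WT.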

How the data were processed

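The values the authors deposited are log2 signals of probe sets, made with Affymetrix Expression Console 1.3.1.187 per the submitters' processing notes. The sources used here do not state background correction, normalisation or genome build. Per the labels, 300 ng of total RNA was labelled per array. The log2 values were used as deposited. Of 41345 probe sets, 23521 carried 1 symbol, 1814 several and 16010 none, and 23328 of the first matched RefSeq by gene identifier. A gene took its brightest single-symbol probe set on average (22180 genes, 1082 with more than 1).

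Differences between 2 arrays were counted from 2-fold where the brighter array reached the median of all values, 4.44, and have no test. Tests used limma 3.58.1 in R 4.3.3 (lmFit, eBayes with trend, Benjamini-Hochberg over 14737 genes, adjusted p under 0.05), tested on simulated data. The response model held genotypes, a dsDNA effect shared by WT and MyD88KO, one of SKO, an LPS effect shared by WT and SKO and one of MyD88KO, with 2 residual degrees of freedom. Genotypes were compared in an additive model of genotype and treatment with 4. Spread therefore comes from differences between genotypes or treatments, moderated by eBayes with the variances of all tested genes, not from repeated cultures. The p-values measure only that spread. In the response model the SKO ISD and MyD88KO LPS arrays have effects of their own and add no spread. A gene can enter through the array where it is high.

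The genes and lists were chosen with earlier results of these data known. Named were the family members, Sting1, Myd88 and Tlr4, list genes at least 2-fold changed or called (at most 8 a list) and the 5 genes most correlated with Il33, Il1a and Il1b. Alternatives were trend, robust eBayes, dim filter, scaling, probe set rule, fold threshold, model and leaving out arrays.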

Additional observations from a re-analysis of the deposited data

Results flagged for a closer look

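The Il33 response to dsDNA differed between genotypes in a direct test: that of WT and MyD88KO exceeded that of SKO by 4.96 on the log2 scale (limma adjusted p = 0.00386). Both STING-sufficient array pairs showed it, with 4.49 and 5.78 against 0.13. The SKO value comes from a single array pair, and no spread of the SKO dsDNA response enters the test.

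Il18 moved down with LPS in MyD88KO, by -0.28 on the log2 scale, and up in WT (0.27) and SKO (0.02). The difference was not tested, and all of these signals were below the median of all values.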

How the results depend on the processing

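With LPS in WT and SKO the fit called 1 gene of the family, Il1b. It called 0 with no trend, with robust eBayes, with no dim filter and in the additive model over all 3 genotypes, and 0 to 1 when 1 array was left out. For dsDNA in WT and MyD88KO the count went from 1 to 0 in the additive model, which gives SKO the same effect. The numbers of passed alternatives below are those of the response model and leave the additive model out. The SKO ISD and MyD88KO LPS arrays each have an effect of their own there, so leaving 1 out could not move the shared effects. The difference in dsDNA response had 0 to 1 calls with 1 array left out, SKO minus WT 0 to 1 and SKO minus MyD88KO 0 to 2. The 6 differences from mock of at least 2-fold became 10 at 1.5-fold. The share of all genes was not counted at 1.5-fold, so nothing is read from that increase. The Il33 dsDNA effect passed in 16 of 16 alternatives (4.54 to 5.78, limma adjusted p 5.33e-05 to 0.0157), the Il33 difference in 12 of 15 (limma adjusted p 0.00195 to 0.266), the Il1b LPS effect in 8 of 16 (3.14 to 5.98, limma adjusted p 0.0112 to 0.714) and Il1a in 0 of 16 (0.0589 to 0.867). The cause was not tested. Scaling moved no difference from mock of the 5 genes by more than 0.0832. The probe set rule could not move them, since each of the 5 has 1 single-symbol probe set. No difference of at least 2-fold and no called result changed sign, and smaller or uncalled ones were not counted for this. Over all genes, no trend cut the calls for the shared LPS effect from 48 higher to 29, for the shared dsDNA effect from 776 higher and 338 lower to 514 and 124, and for the dsDNA difference from 184 higher to 84. No pairing of cultures by replicate number was possible because every array carries number 1, so that number cannot serve as a block. Genotype and treatment are terms of the models themselves. Low signals cannot be told from background, and 1 array per group limits every value.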
